A study of Homo sapiens with 15 samples.

Results

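The 41 genes described here make up the hypoxia response and the glycolytic pathway: the hypoxia-inducible factor (HIF) subunits and their prolyl hydroxylases, glucose transporters, glycolytic enzymes, regulators of glycolytic flux, and genes that low oxygen is known to induce. They were chosen by gene symbol, with 1 probe set for each gene, annotated to no other gene. The choice was made with earlier results of these data known, so the shares of genes called below do not test the pathway. Probe sets not marked as cross-hybridizing were taken first, and then the one with the highest mean signal. The probe sets used for GAPDH and ALDOA carry that mark, as do those of the epithelial markers KRT8 and KRT18 below. A tested probe set was found for 40 of the 41, out of 16358 genes with a tested probe set on the arrays, and CA9 was not analysed here.

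The cells were A549, a line derived from a human lung adenocarcinoma, cultured in F12K with charcoal-treated serum, and total RNA was measured on 15 Affymetrix arrays in 5 groups of 3. The match group received the match polyamide for 48 hours and dexamethasone for 6 hours, and the mismatch group received the mismatch polyamide for 48 hours and dexamethasone for 6 hours. The mifepristone group received mifepristone for 48 hours and dexamethasone for 6 hours, and its counterparts were cells given dexamethasone alone for 6 hours and non-treated cells. No group received mifepristone or a polyamide without dexamethasone. A changed response to dexamethasone therefore cannot be told apart from an effect of the 48 hours of compound itself. The labels give no doses and no vehicle and do not say if a group's arrays were separate cultures, so p-values reflect the spread among these arrays alone, and that spread may be technical.

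Dexamethasone is a synthetic glucocorticoid that activates the glucocorticoid receptor, and mifepristone is an antagonist of that receptor. Polyamides of this kind are small molecules that bind the minor groove of DNA, and the series title describes one directed to the glucocorticoid response element. HIF is a dimer of an alpha subunit (HIF1A or EPAS1) with ARNT. In oxygen the prolyl hydroxylases, among them EGLN1 and EGLN3, mark the alpha subunits for degradation, so HIF activity is set largely at the protein level, which arrays do not measure. Stable HIF binds short motifs with the core ACGTG or GCGTG and induces glucose transporters, most glycolytic enzymes, angiogenic factors and its own hydroxylases. Lung adenocarcinoma cells rely heavily on glycolysis, and many of its enzymes are among the most abundant transcripts of cultured cells.

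All values are array signals after quantile normalization, in arbitrary units, and every change is a difference of group means of log2(signal + 16), which understates the change of dim probe sets. A gene was called at a Benjamini-Hochberg adjusted p under 0.05 in limma over all 39744 probe sets tested, and "rose", "fell", "higher" and "lower" refer to called genes only. The deposited signals had array medians of 14.8 to 24.5, those of the mifepristone arrays being 19.7 to 24.5 against 14.8 to 18.1 for the dexamethasone arrays. Correlations of log2 values over all probe sets ran between 0.978 and 0.985 within groups and between 0.950 and 0.983 across groups. The 3′ to 5′ signal ratio of the GAPDH control probe sets was 0.914 to 1.07 over all arrays. That of ACTB was 1.413 to 1.99 in the mismatch group, 1.32 to 1.72 in the match group and 1.32 to 1.409 with dexamethasone alone. It was 1.32 to 1.43 with mifepristone and 1.36 to 1.57 in non-treated cells. The part of this ratio in the results below was not tested. The epithelial markers KRT8, KRT18, KRT19, EPCAM, CDH1 and MUC1 lay above the array median on 15 of 15 arrays, but their levels moved: all 6 were called with the match polyamide (2 higher and 4 lower, changes of -1.50 to 1.76) and 5 with the mismatch polyamide, each against dexamethasone alone. Their summed signal was 14351 to 15693 in the match group, 16475 to 17203 in the mismatch group, 15287 to 15915 with mifepristone, 17736.5 to 17811 with dexamethasone alone and 15567 to 16046 in non-treated cells. Of the measured markers of leukocytes, fibroblasts and endothelium, COL1A1 and PECAM1 lay above the median on 15 arrays, CSF1R on 10, CD3E on 8, CD14 and DCN on 6, COL3A1 on 5, COL1A2 on 3, LUM and VWF on 1, and PTPRC, LYZ, PDGFRB, CDH5 and TEK on 0. The summed signal of the 6 fibroblast markers was 278 to 324 in the match group, 192 to 241 in the mismatch group and 130 to 188 with dexamethasone alone, and those of the 5 leukocyte and 4 endothelial markers measured stayed between 48.2 and 90.7 and between 39.0 and 78.1 on all arrays. COL1A1 dominated the fibroblast sum, with a median of 133 over all arrays against medians of 2.54 to 17.4 for the others. Of the 5 fibroblast markers tested, 1 was called with each polyamide against dexamethasone alone. The part of these markers in the results below was not tested. In RNA from whole cultures, fewer expressing cells and less RNA per cell cannot be told apart.

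The first comparison asked which of these genes respond to 6 hours of the glucocorticoid. Of the 40 genes, 3 rose and 5 fell with dexamethasone, against 2.57% of all tested probe sets called higher, 2.29% called lower and 4.86% in either direction, and 6.8% of genes at 1 probe set per gene. Both strongest inductions were of stress-responsive genes that hypoxia also induces, NDRG1 and DDIT4, while PFKFB3 and ENO2, of the glycolytic set, fell most. The median change of the 40 genes was 0.01, beside -0.01 over all tested probe sets and -0.04 over genes at 1 probe set each. The arrays of the 2 groups did not overlap for 17 of the 40, against 20.4% of all tested probe sets.

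NDRG1, a cytoplasmic protein of the stress and differentiation response, had signals of 1294, 1299 and 1408 with dexamethasone, against 495, 536 and 574 in non-treated cells. Every dexamethasone array was more than 2 times as bright as every non-treated array, and the change was 2.45-fold (log2 change 1.29, SE 0.10, adjusted p = 2.63e-08). DDIT4, a stress-induced inhibitor of mTOR signalling and a known glucocorticoid target, had 3083, 2817 and 2969.5 with dexamethasone and 1613, 1481 and 1528 in non-treated cells. These arrays were also fully separated, and DDIT4 rose 1.91-fold (log2 change 0.93, SE 0.05, adjusted p = 1.34e-10).

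PFKFB3, the enzyme that makes the allosteric activator of phosphofructokinase, fell to 774, 683 and 742 with dexamethasone, against 1443, 1446 and 1281 in non-treated cells (log2 change -0.91, SE 0.09, adjusted p = 1.15e-06). The neuronal-type enolase ENO2 showed 138, 96.9 and 122 with dexamethasone and 196, 259.6 and 217 in non-treated cells (log2 change -0.84, SE 0.12, adjusted p = 1.08e-04). For both genes all 3 dexamethasone arrays were below all 3 non-treated arrays. Among the HIF subunits, EPAS1, the alpha subunit prominent in endothelium and lung, fell to 1567, 1466 and 1562 with dexamethasone, against 1882, 1999.7 and 2102 in non-treated cells (log2 change -0.38, SE 0.07, adjusted p = 0.00291). HIF1A, the broadly expressed alpha subunit, had 3499, 3686 and 3730.0 with dexamethasone and 3947, 4247 and 3959 in non-treated cells. Its arrays did not overlap, but the change of -0.15 (95% interval -0.28 to -0.02) was not called (adjusted p = 0.222). The partner subunit ARNT had 81.1, 97.7 and 83.6 with dexamethasone and 103, 86.5 and 91.4 in non-treated cells, groups that overlapped (log2 change -0.09, SE 0.15, adjusted p = 0.873).

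The remaining calls were small. EGLN1, the main oxygen-sensing prolyl hydroxylase, rose by 0.32 (adjusted p = 0.0343), while the histone demethylase KDM3A (-0.41, adjusted p = 0.0188) and the membrane carbonic anhydrase CA12 (-0.23, adjusted p = 0.0124) fell. ENO2 was the 1 glycolytic enzyme of 16 that was called, and 0 of the 2 glucose transporters was. SLC2A1, the basal glucose transporter, had 237, 312 and 293 with dexamethasone and 320.1, 315 and 319 in non-treated cells (log2 change -0.18, SE 0.10, adjusted p = 0.454). GAPDH, PGK1 and LDHA, enzymes of the lower pathway, changed by 0.00 (95% interval -0.08 to 0.09), 0.10 (0.01 to 0.20) and 0.01 (-0.07 to 0.09). VEGFA, the angiogenic growth factor, averaged 219 ± 29.7 with dexamethasone and 215 ± 14.9 in non-treated cells (SD, n = 3 each), a change of 0.02 that was not called (95% interval -0.19 to 0.22).

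The calls of NDRG1, DDIT4, PFKFB3 and ENO2 held under all 28 alternative settings, whereas those of EPAS1, CA12, EGLN1 and KDM3A were lost on the signals as deposited (adjusted p = 0.44, 0.889, 0.578 and 0.552). Leaving out 1 array ended the calls of CA12 (without dexamethasone replicate 1 or 2 or non-treated replicate 3, adjusted p 0.0593 to 0.0928), KDM3A (without dexamethasone replicate 1 or 2 or non-treated replicate 2 or 3, 0.0606 to 0.124) and EGLN1 (without dexamethasone replicate 1 or 3 or any non-treated array, 0.0562 to 0.175), and without non-treated replicate 3 the count of called genes was 5 in place of 8.

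**Figure D1:**
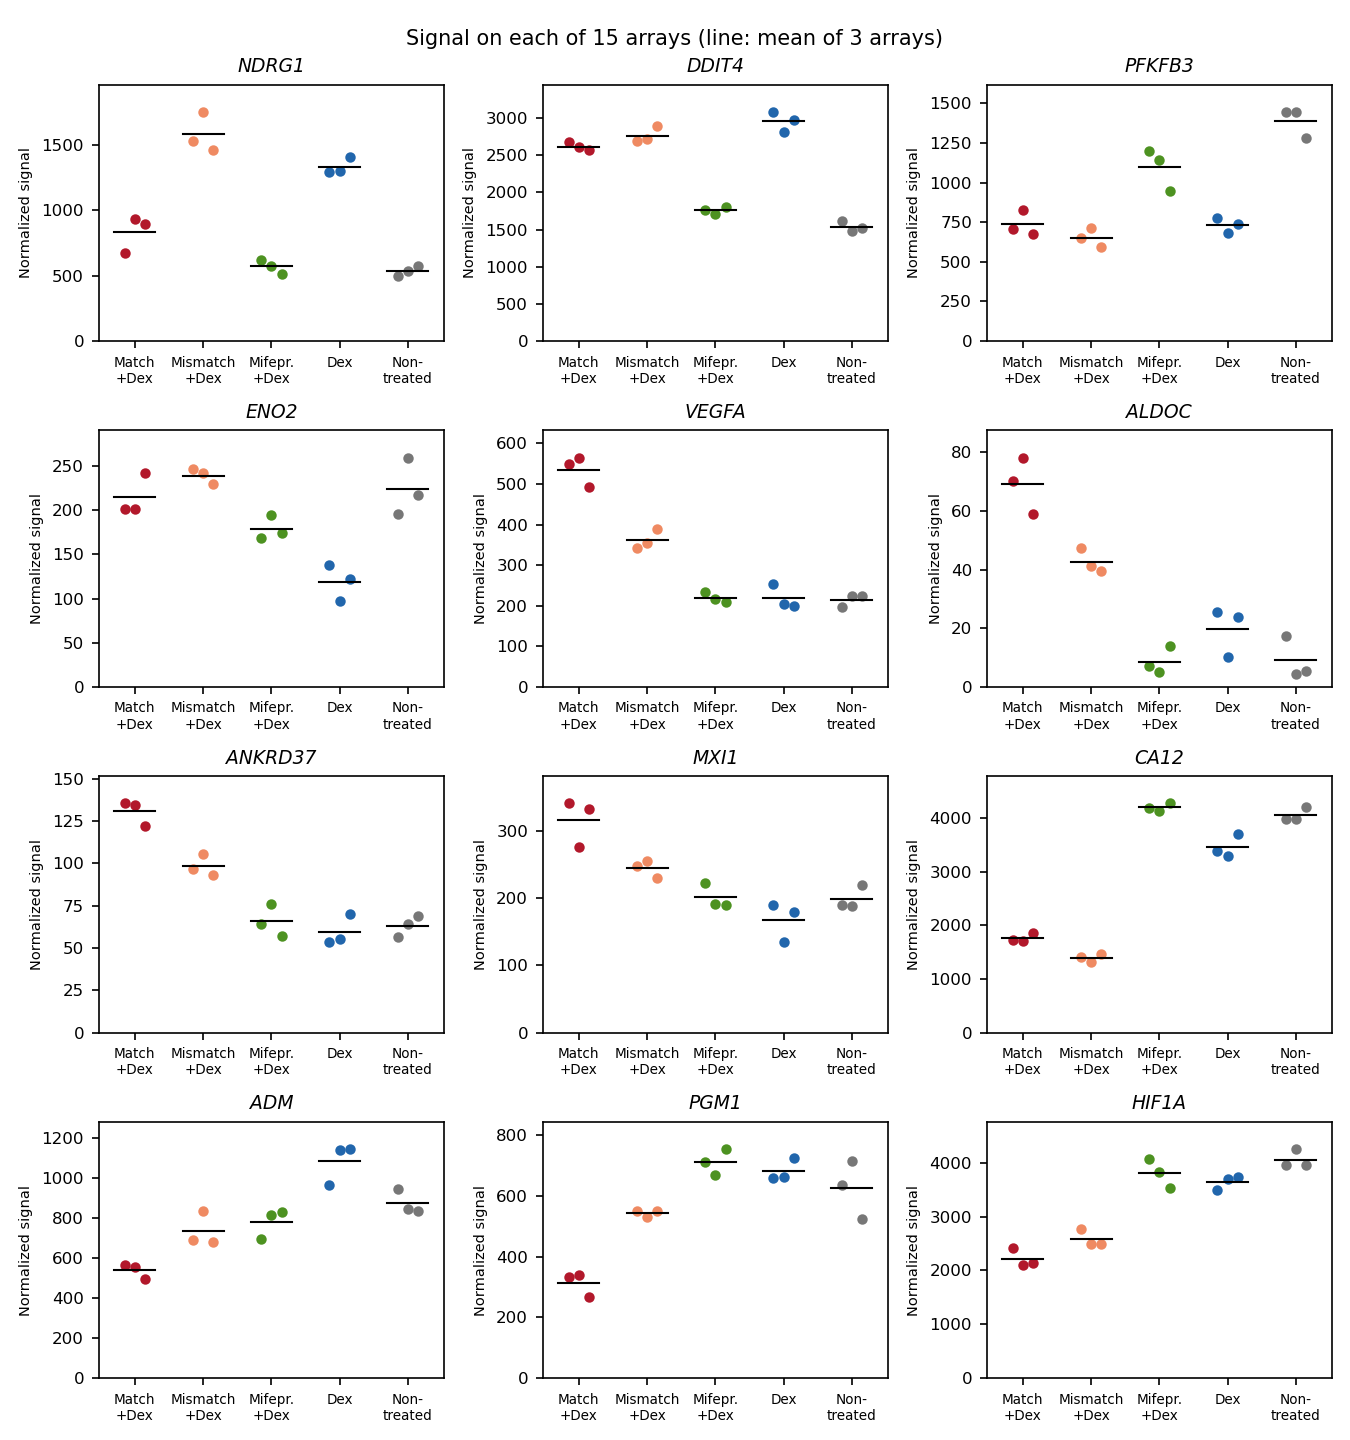
Normalized signal (arbitrary units, linear axes starting at 0) of 12 of the genes on each of the 15 arrays; points are arrays, the short line is the mean of 3, and groups run match, mismatch, mifepristone, dexamethasone and non-treated. NDRG1 and DDIT4 are higher with dexamethasone than in the mifepristone and non-treated groups, VEGFA is highest in the match group, and CA12 is lowest in the groups given a polyamide.

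The next comparison set cells given mifepristone and dexamethasone against cells given dexamethasone alone. Of the 40 genes 3 were higher and 3 lower with mifepristone, against 1.6% of all tested probe sets called higher, 1.94% called lower and 3.54% in either direction, and 5.28% of genes. The arrays of the groups did not overlap for 14 of the 40, against 17.7% of all tested probe sets. This comparison and the previous one share the dexamethasone arrays, so their values are given side by side and not as independent evidence. The median change of the 40 genes was 0.01, beside 0.01 over all tested probe sets and 0.02 over genes at 1 probe set each.

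NDRG1 fell to 623, 572 and 517 with mifepristone, against 1294 to 1408 with dexamethasone alone (log2 change -1.20, SE 0.10, adjusted p = 1.20e-07). DDIT4 had 1766, 1707 and 1799 with mifepristone, against 2817 to 3083 with dexamethasone alone (log2 change -0.74, SE 0.05, adjusted p = 7.19e-09). For both genes the mifepristone arrays lay below all dexamethasone arrays. PFKFB3 was higher with mifepristone, at 1199, 1143 and 946 against 683 to 774 with dexamethasone alone (log2 change 0.57, SE 0.09, adjusted p = 6.52e-04), and ENO2 likewise, at 169, 195 and 174 against 96.9 to 138 (log2 change 0.54, SE 0.12, adjusted p = 0.0119).

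CA12 was also higher with mifepristone, at 4197, 4132 and 4275 against 3389, 3290.1 and 3706 with dexamethasone alone (log2 change 0.28, SE 0.05, adjusted p = 0.00326). ADM, which encodes the vasodilator peptide adrenomedullin, had 698, 814 and 829 with mifepristone and 964, 1141 and 1144 with dexamethasone alone, a change of -0.46 (adjusted p = 0.00415) that became 0.040 when arrays were scaled on the spike-in controls. The HIF subunits HIF1A and EPAS1 changed by 0.06 and 0.21, with arrays of 4065, 3834 and 3527 and 1852, 1892 and 1602 in the mifepristone group, and neither was called (adjusted p = 0.786 and 0.166). VEGFA had 234, 217 and 209 with mifepristone and 253, 205 and 199 with dexamethasone alone, 2 overlapping groups (log2 change 0.01, SE 0.10, adjusted p = 0.984).

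The scaling changed how many genes passed in this comparison: on the signals as deposited 13 genes were higher and 1 lower, and with spike-in scaling 20 were higher and 1 lower, while the median of all tested probe sets moved to 0.35 and 0.40. NDRG1 and PFKFB3 were the 2 calls that held under all 28 settings; DDIT4 lost its call on deposited signals (adjusted p = 0.0647) and with spike-in scaling (0.153), CA12 with median centring (0.0858) and trimmed-mean scaling (0.399), and ENO2 without dexamethasone replicate 2 or mifepristone replicate 2 (adjusted p 0.0757 to 0.0934).

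As among all tested probe sets, more of these genes were called with either polyamide than with the steroid or with mifepristone. With the match polyamide 11 rose and 12 fell relative to dexamethasone alone, against 15.9% and 15% of all tested probe sets called higher and lower, 30.8% in either direction, and 39% of genes. With the mismatch polyamide 14 rose and 12 fell, against 12% and 10.9% of all tested probe sets called higher and lower, 22.9% in either direction, and 29.7% of genes. Arrays did not overlap those of dexamethasone alone for 24 genes with the match and 29 with the mismatch polyamide, against 39.8% and 35.8% of all tested probe sets. These comparisons share the dexamethasone arrays. Of the 40 genes, 10 were called higher and 10 lower under both polyamides, 0 were called in opposite directions, 3 were called under the match polyamide alone, 6 under the mismatch polyamide alone and 11 under neither. The same split over all tested genes was not counted, so these counts cannot be read as particular to the 40 genes.

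VEGFA, ALDOC, ANKRD37, MXI1 and ENO2 were the genes most raised by the match polyamide, and PGM1, ADM, CA12, HIF1A and NDRG1 those most lowered. Members of 1 pathway therefore moved both ways. The median change of the 40 genes was -0.02 with the match and 0.07 with the mismatch polyamide. It was 0.03 and 0.02 over all tested probe sets, and 0.05 and 0.07 over genes at 1 probe set each. Of the 13 measured hypoxia-induced genes outside glycolysis, 6 rose and 5 fell with the match polyamide, and 8 rose and 3 fell with the mismatch polyamide. Of the 16 glycolytic enzymes, 4 rose and 3 fell with the match, and 3 rose and 5 fell with the mismatch polyamide.

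**Figure D2:**
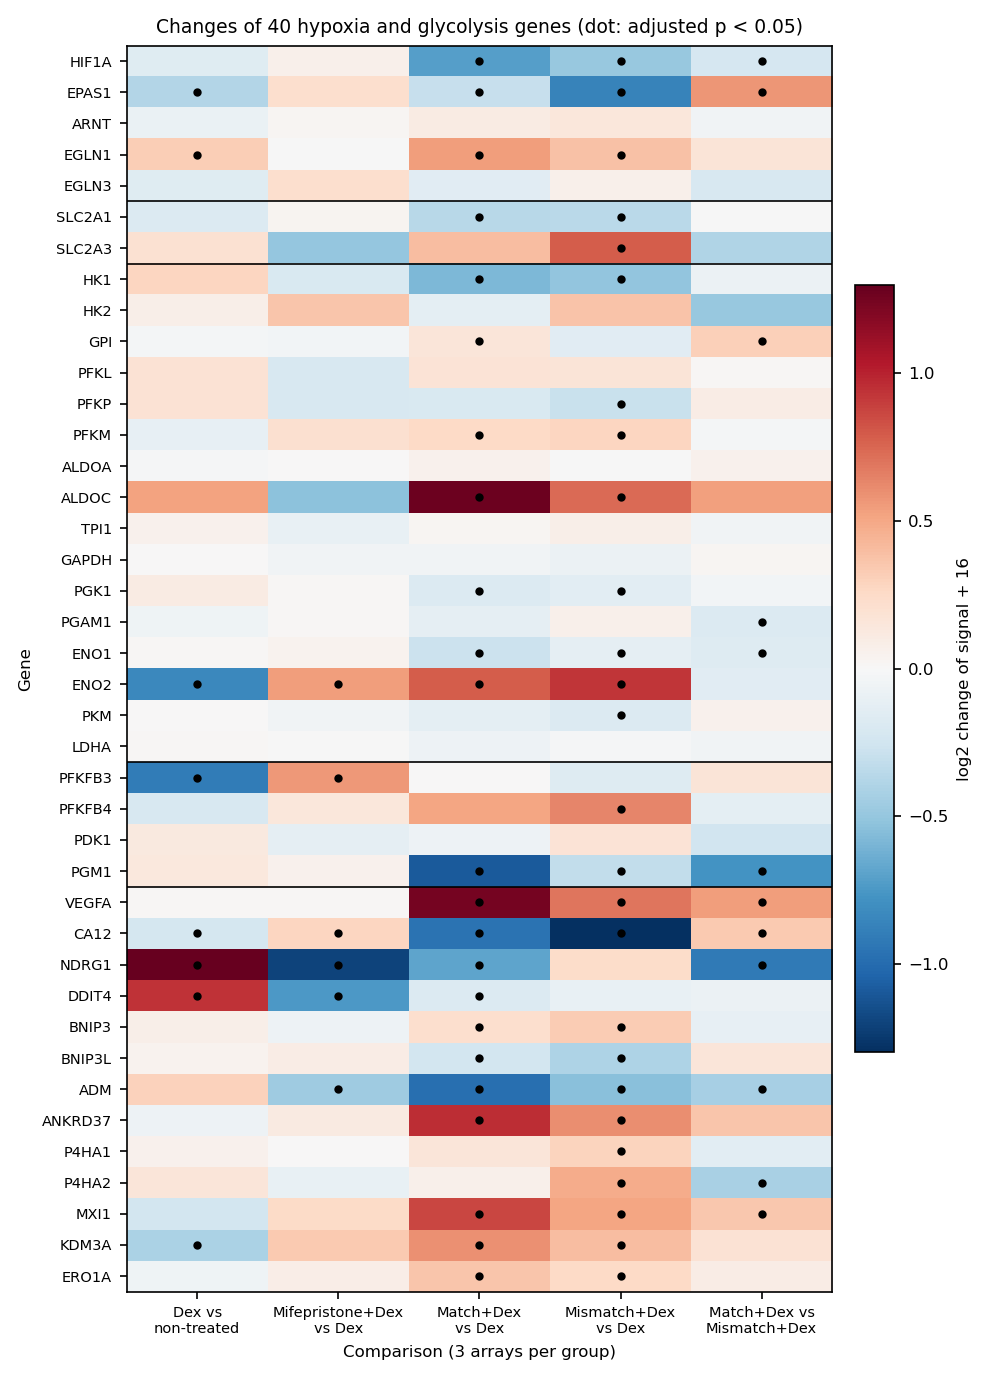
Change of each of the 40 genes (rows, grouped by role) in the 5 comparisons (columns), as the difference of log2(signal + 16) on a colour scale centred on 0; a dot marks an adjusted p under 0.05 in limma. The 2 polyamide columns hold most of the dots, 23 and 26, and the dexamethasone and mifepristone columns 8 and 6.

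To show the promoter windows of genes called in the same direction under both polyamides, the promoters of 3 that rose and 3 that fell are printed here, those with the largest mean change over both polyamides among genes with a single window, from RefSeq on GRCh38.p14, 250 bases before to 50 bases after the annotated start, 5′ to 3′ on the gene's strand. Capitals mark the HIF core motifs ACGTG and GCGTG on either strand, which read CACGT and CACGC when they lie on the other strand; where ACGTG stands on both strands at once the run reads CACGTG. The 3 that rose are ALDOC (chr17:28576846-28577145, minus strand), ENO2 (chr12:6914330-6914629, plus strand) and ANKRD37 (chr4:185396591-185396890, plus strand).
ALDOC: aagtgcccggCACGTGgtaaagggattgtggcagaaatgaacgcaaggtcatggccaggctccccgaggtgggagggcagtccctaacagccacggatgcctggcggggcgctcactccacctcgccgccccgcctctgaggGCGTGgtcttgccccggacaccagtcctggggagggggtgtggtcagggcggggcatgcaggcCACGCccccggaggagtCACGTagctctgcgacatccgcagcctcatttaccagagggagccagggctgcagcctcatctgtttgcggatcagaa
ENO2: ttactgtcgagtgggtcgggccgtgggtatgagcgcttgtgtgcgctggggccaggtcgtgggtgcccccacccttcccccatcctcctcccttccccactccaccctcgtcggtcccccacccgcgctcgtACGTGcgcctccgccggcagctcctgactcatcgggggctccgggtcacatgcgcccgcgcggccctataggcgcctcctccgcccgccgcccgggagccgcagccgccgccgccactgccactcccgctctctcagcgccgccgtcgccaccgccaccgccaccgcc
ANKRD37: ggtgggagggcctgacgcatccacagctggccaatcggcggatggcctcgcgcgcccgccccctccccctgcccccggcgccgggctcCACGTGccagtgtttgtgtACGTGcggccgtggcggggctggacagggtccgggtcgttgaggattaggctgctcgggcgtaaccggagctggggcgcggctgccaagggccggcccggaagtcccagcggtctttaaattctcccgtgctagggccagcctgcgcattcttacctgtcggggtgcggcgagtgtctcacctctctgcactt
The 3 that fell are CA12 (chr15:63381797-63382096, minus strand), ADM (chr11:10304823-10305122, plus strand) and EPAS1 (chr2:46297157-46297456, plus strand).
CA12: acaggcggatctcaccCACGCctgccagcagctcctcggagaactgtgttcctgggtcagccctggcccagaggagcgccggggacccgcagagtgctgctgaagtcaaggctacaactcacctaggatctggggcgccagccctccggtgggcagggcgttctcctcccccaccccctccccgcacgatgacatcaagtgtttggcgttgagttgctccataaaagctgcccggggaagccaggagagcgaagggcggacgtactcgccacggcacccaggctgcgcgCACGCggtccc
ADM: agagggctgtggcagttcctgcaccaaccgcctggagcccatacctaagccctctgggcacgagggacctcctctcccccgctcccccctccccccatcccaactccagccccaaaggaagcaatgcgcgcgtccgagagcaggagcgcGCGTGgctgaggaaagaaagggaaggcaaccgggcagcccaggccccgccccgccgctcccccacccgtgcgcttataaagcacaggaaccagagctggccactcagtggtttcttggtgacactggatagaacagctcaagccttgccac
EPAS1: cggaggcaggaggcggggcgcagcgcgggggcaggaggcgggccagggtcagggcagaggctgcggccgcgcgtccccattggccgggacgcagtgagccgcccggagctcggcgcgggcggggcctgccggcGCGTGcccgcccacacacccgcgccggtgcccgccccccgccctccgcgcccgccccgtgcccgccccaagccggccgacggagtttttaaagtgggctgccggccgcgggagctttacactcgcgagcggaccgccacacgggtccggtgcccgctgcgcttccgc
Copies were counted on each strand, here and below, so that a single CACGTG run counts as 2 copies of ACGTG. The ALDOC window held 3 copies of ACGTG and 2 of GCGTG, ENO2 held 1 ACGTG, and ANKRD37 held 3 copies of ACGTG. In ALDOC and ANKRD37, 2 of these copies are the same CACGTG run. In the windows of the genes that fell, CA12 held 2 copies of GCGTG, ADM 1 and EPAS1 1, and none of the 3 held ACGTG. Over all genes called in 1 direction under both polyamides, 9 of the 10 that rose and 9 of the 10 that fell had a window. At least 1 copy of either core was present for all 9 in each direction, with up to 6 copies in a window of a gene that rose and up to 4 in one of a gene that fell. ACGTG was present for 8 of the 9 that rose and for 2 of the 9 that fell, PGM1 and PGK1. Any window was counted for genes with several. This difference was not tested, and the share per gene was not counted over all genes. RefSeq windows were found for 37 of the 41 genes, 65 windows in all, since some genes have several starts; VEGFA, NDRG1, SLC2A3 and BNIP3L had no entry. ACGTG was present in 26 of the 65 windows (40%) against 21.4% of all 35116 windows of the same length, and GCGTG in 43.1% against 36.5%. The glucocorticoid response element, searched on both strands as GNACA followed after 3 bases by TGTNC, was found in 0 of the 65 windows and in 0.39% of all windows. These matches describe letters in short windows and locate no binding.

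Both alpha subunits of HIF were lower with the polyamides. HIF1A had 2409, 2098 and 2145 with the match polyamide and 2766, 2486 and 2498 with the mismatch polyamide, against 3499, 3686 and 3730.0 with dexamethasone alone. All 6 polyamide arrays were below all 3 dexamethasone arrays, with changes of -0.71 (SE 0.06, adjusted p = 1.75e-08) for the match and -0.49 (SE 0.06, adjusted p = 6.14e-06) for the mismatch polyamide. EPAS1 had 1142, 1307 and 1294 with the match and 868, 762 and 876 with the mismatch polyamide, against 1567, 1466 and 1562 with dexamethasone alone. Here the mismatch arrays were the lowest, -0.86 relative to dexamethasone alone (adjusted p = 4.30e-08), and the match change was -0.29 (adjusted p = 0.00425). On deposited signals and with spike-in scaling the EPAS1 match change was -0.26 and -0.046 (adjusted p = 0.27 and 0.863) and the HIF1A mismatch change -0.25 and -0.34 (adjusted p = 0.228 and 0.158), none of them called. The HIF1A match call and the EPAS1 mismatch call held under all 28 settings.

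ARNT, the shared partner, had 74.1, 91.9 and 125 with the match and 103, 109.9 and 83.8 with the mismatch polyamide. Its groups overlapped that given dexamethasone alone, and the changes of 0.10 and 0.15 were not called. The hydroxylase gene EGLN1, itself a HIF target, rose with both polyamides to 2984, 2685 and 2529 (match) and 2250.1, 2397 and 2647 (mismatch), against 1942, 1635 and 2031 with dexamethasone alone. The rises were 0.55, adjusted p = 4.60e-05 (match), and 0.38, adjusted p = 0.00281 (mismatch). The second hydroxylase gene, EGLN3, had 33.3, 45.4 and 33.0 with the match, 50.4, 43.9 and 41.7 with the mismatch polyamide and 39.6, 40.9 and 47.6 with dexamethasone alone, and these overlapping groups gave no call (adjusted p = 0.557 and 0.845).

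Of the glucose transporters, SLC2A1 fell with both polyamides, to 212, 231 and 201 with the match and 207, 231 and 207 with the mismatch, against 237, 312 and 293 with dexamethasone alone. The changes were near-equal, -0.36 (match, adjusted p = 0.0104) and -0.35 (mismatch, adjusted p = 0.0155). SLC2A3, the high-affinity transporter, averaged 103 ± 30.3 with the match, 139 ± 36.3 with the mismatch polyamide and 73.7 ± 18.5 with dexamethasone alone (SD, n = 3 each). It rose by 0.78 with the mismatch polyamide (adjusted p = 0.00676), and its match change of 0.40 was not called (adjusted p = 0.156). On both of its other tested probe sets the match change was called, at 0.57 and 0.82 (adjusted p = 0.00169 and 3.05e-04).

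Within glycolysis, the enzymes with the largest changes were an aldolase, an enolase and a hexokinase. ALDOC, the brain-type aldolase, had signals of 70.2, 78.2 and 58.8 with the match and 47.2, 41.3 and 39.6 with the mismatch polyamide, against 25.6, 10.3 and 23.7 with dexamethasone alone. Its signals without polyamide were in the dim part of the arrays, between 4.39 and 25.6 on 9 arrays, and the polyamide groups were fully above them. The rises were 1.27 (SE 0.22, adjusted p = 1.13e-04) with the match and 0.74 (SE 0.22, adjusted p = 0.018) with the mismatch polyamide. ALDOA, the widespread aldolase, changed by 0.05 (95% interval -0.04 to 0.14) and -0.01 (-0.09 to 0.08), and neither was called.

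ENO2 had 201, 201 and 243 with the match and 247, 242 and 229 with the mismatch polyamide, against 138, 96.9 and 122 with dexamethasone alone. All 6 polyamide arrays exceeded the 3 dexamethasone arrays (log2 change 0.78, SE 0.12, adjusted p = 3.61e-05 for the match; log2 change 0.93, SE 0.12, adjusted p = 9.23e-06 for the mismatch polyamide), and they lay within the non-treated range of 196 to 259.6. ENO1, the housekeeping enolase, went the other way with the match polyamide, at 6060.4, 5861 and 6102 against 7335, 7181 and 7298 with dexamethasone alone (log2 change -0.27, SE 0.04, adjusted p = 1.16e-05). That call was lost on deposited signals (-0.28, adjusted p = 0.0707), with spike-in scaling (-0.064, adjusted p = 0.768) and with the mean of its probe sets (-0.16, adjusted p = 0.116). With the mismatch polyamide its change of -0.11 (adjusted p = 0.043) became 0.058 on the signals as deposited. HK1, the constitutive hexokinase, fell with both, the changes being -0.58 with the match and -0.51 with the mismatch polyamide (adjusted p = 0.003 and 0.0117). Its match arrays were scattered, from 305 to 530 with a median of 336. The mismatch arrays ran from 349 to 434, and those of dexamethasone alone from 538 to 608. HK2, the inducible hexokinase, had dim signals of 12.8, 5.71 and 1.80 (match), 23.6, 14.95 and 9.38 (mismatch) and 2.45, 19.4 and 6.23 (dexamethasone alone), widely scattered and uncalled on this probe set. A second HK2 probe set was higher with both polyamides, by 0.65 (match, adjusted p = 0.0258) and 0.74 (mismatch, adjusted p = 0.0151).

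Among the other enzymes the phosphofructokinase PFKM rose by 0.25 with the match and 0.28 with the mismatch polyamide (adjusted p = 0.0188 and 0.0131), and GPI, the glucose phosphate isomerase, rose by 0.16 with the match polyamide (adjusted p = 0.0254). The platelet-type phosphofructokinase PFKP fell by 0.29 with the mismatch polyamide (adjusted p = 0.00655). PGK1, the first ATP-forming enzyme of the pathway, had 4641, 4549 and 4204 with the match and 4586, 4603 and 4569.8 with the mismatch polyamide, against 5179, 4952 and 4965 with dexamethasone alone. Its called changes of -0.17 (match, adjusted p = 0.00488) and -0.13 (mismatch, adjusted p = 0.0363) turned to 0.060 under spike-in scaling (match) and 0.077 on deposited signals (mismatch). The change of the pyruvate kinase gene PKM with the mismatch polyamide, -0.18 (adjusted p = 0.0172), likewise turned to 0.038 on deposited signals.

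GAPDH had 7509, 7558 and 7347 with the match and 7624, 7368 and 7022 with the mismatch polyamide, against 7745, 7888 and 7525 with dexamethasone alone. Both polyamide groups overlapped it, and the 95% intervals of the changes were -0.13 to 0.04 and -0.16 to 0.01. LDHA, which turns pyruvate into lactate, had 8200.1, 7969 and 8101 with the match, 8615, 8101 and 8356 with the mismatch polyamide and 8748, 8548 and 8067 with dexamethasone alone, with intervals of -0.14 to 0.02 and -0.10 to 0.06. The probe sets of 8 enzymes, ALDOA, TPI1, GAPDH, PGK1, PGAM1, ENO1, PKM and LDHA, lay above the 99th percentile of their array on all 15 arrays, and how far this limits their measured changes was not tested.

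**Figure D3:**
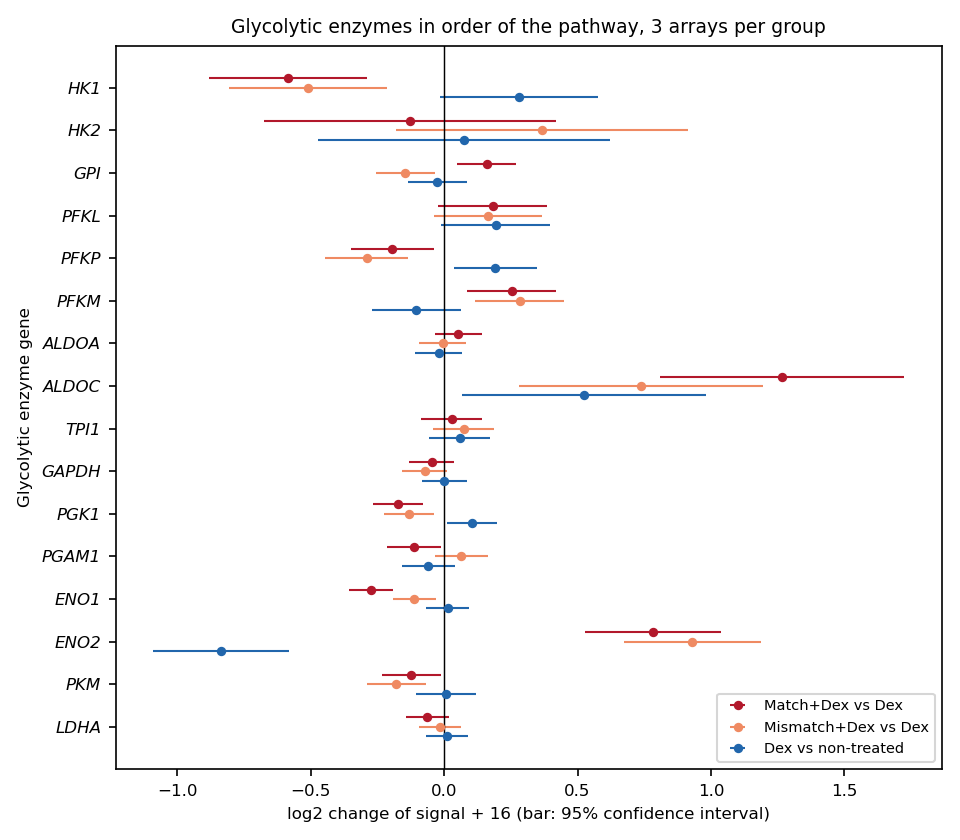
Change of the 16 glycolytic enzymes as the difference of log2(signal + 16) with its 95% interval from limma, for match against dexamethasone, mismatch against dexamethasone and dexamethasone against non-treated; 3 arrays per group. ALDOC and ENO2 stand to the right in both polyamide comparisons, HK1 stands to the left, and GAPDH and LDHA lie near 0.

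PGM1, the phosphoglucomutase that links glycogen to glycolysis, had 333, 340.0 and 267 with the match and 551, 531 and 549.1 with the mismatch polyamide, against 659, 660.0 and 724 with dexamethasone alone. The match arrays were the lowest and separate from both other groups, with a 2.13-fold fall (log2 change -1.09, SE 0.10, adjusted p = 3.96e-08), and the mismatch change was -0.31 (adjusted p = 0.0281). PFKFB3 had 708, 825 and 676 with the match and 648, 714 and 596 with the mismatch polyamide, signals that overlapped those of dexamethasone alone. Neither change was called (0.00, 95% interval -0.19 to 0.20, for the match; -0.17, -0.36 to 0.03, for the mismatch polyamide). PFKFB4, its hypoxia-inducible relative, changed by 0.51 (match, adjusted p = 0.0837) and 0.64 (mismatch, adjusted p = 0.0386), and PDK1, a kinase that turns off pyruvate dehydrogenase, was called under neither.

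VEGFA rose with both polyamides. Its signals were 548.9, 565 and 493 with the match and 341, 355 and 389 with the mismatch polyamide, against 253, 205 and 199 with dexamethasone alone. Match arrays lay above mismatch arrays, and mismatch arrays above dexamethasone arrays, without overlap. The rise was 2.36-fold with the match (log2 change 1.24, SE 0.10, adjusted p = 4.15e-09) and 1.61-fold with the mismatch polyamide (log2 change 0.69, SE 0.10, adjusted p = 2.31e-05). ADM fell instead, to 566, 557 and 497 with the match and 693, 836 and 683 with the mismatch polyamide, against 964, 1141 and 1144 with dexamethasone alone. These groups did not overlap either, and the changes were -0.98 (adjusted p = 5.15e-08) and -0.55 (adjusted p = 1.68e-04).

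CA12 was lower with both, at 1736, 1708 and 1859.9 with the match and 1413, 1322 and 1462 with the mismatch polyamide, against 3389, 3290.1 and 3706 with dexamethasone alone. The mismatch arrays were lowest, 2.46-fold down (log2 change -1.30, SE 0.05, adjusted p = 2.25e-12), and the match arrays 1.95-fold down (log2 change -0.96, SE 0.05, adjusted p = 3.02e-11). NDRG1 had 674, 937 and 893 with the match and 1529.8, 1753 and 1465 with the mismatch polyamide, against 1294, 1299 and 1408 with dexamethasone alone. It fell with the match polyamide (log2 change -0.68, SE 0.10, adjusted p = 2.61e-05), while the mismatch arrays, all above the dexamethasone arrays, gave 0.24 with an adjusted p of 0.105, which was not called. DDIT4 had 2674, 2607 and 2567 with the match and 2688, 2722 and 2888 with the mismatch polyamide, close to the dexamethasone arrays at 2817 to 3083. Its match change of -0.17 (adjusted p = 0.0124) became 0.078 under spike-in scaling, and its mismatch change of -0.10 was not called.

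Genes of the HIF response outside metabolism rose in several cases. ANKRD37, a small ankyrin-repeat protein strongly induced by hypoxia, had 135, 135 and 122 with the match and 96.6, 106 and 93.2 with the mismatch polyamide, against 53.8, 55.1 and 70.2 with dexamethasone alone. MXI1, a repressor that competes with MYC for its partner MAX, had 341, 277 and 332 with the match and 248, 256 and 229 with the mismatch polyamide, against 190.2, 134 and 179 with dexamethasone alone. For both genes all polyamide arrays exceeded all dexamethasone arrays: ANKRD37 rose by 0.96 (match) and 0.60 (mismatch), and MXI1 by 0.86 and 0.51, with adjusted p of 6.23e-06, 0.00164, 7.85e-06 and 0.00291. ANKRD37 has 2 tested probe sets. Over the 28 alternative settings its rises, called in each, ran from 0.44 to 1.13 (match) and 0.40 to 0.72 (mismatch).

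KDM3A rose by 0.59 with the match and 0.40 with the mismatch polyamide, ERO1A, an oxidoreductase of protein folding, by 0.36 and 0.26, and the mitophagy receptor BNIP3 by 0.22 and 0.33. The related receptor BNIP3L fell by 0.40 with the mismatch polyamide, and its match change of -0.24 became 0.019 under spike-in scaling. The collagen prolyl hydroxylases P4HA1 and P4HA2 rose with the mismatch polyamide, by 0.29 and 0.48. Their match changes of 0.16 and 0.06 were not called (adjusted p = 0.175 and 0.597).

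On the signals as deposited, 13 genes were called with the match polyamide (7 higher and 6 lower) and 15 with the mismatch polyamide (13 higher and 2 lower). The match calls lost there were those of EPAS1, DDIT4, SLC2A1, GPI, PFKM, PGK1, ENO1, BNIP3, BNIP3L and ERO1A (adjusted p 0.0707 to 0.553), and those lost with spike-in scaling were of EPAS1, DDIT4, SLC2A1, HK1, PGK1, ENO1 and BNIP3L (0.229 to 0.946). The mismatch calls lost on deposited signals were of HIF1A, SLC2A1, HK1, PFKP, PFKM, PGK1, ENO1, PKM, BNIP3L, ADM, P4HA1 and PGM1 (0.0578 to 0.886), and spike-in scaling ended these and those of PFKFB4, BNIP3, KDM3A and ERO1A (0.0595 to 0.958). The mismatch calls of ALDOC (adjusted p = 0.0777) and ENO1 were lost with 1 in place of 16 as the added constant. With the mean of all their probe sets, mismatch calls were lost for P4HA2 and ERO1A (0.1 and 0.204) and for PFKP, PGK1, ENO1 and PKM. Match calls lost with that mean were of PGK1, ENO1 and BNIP3. With 1 array left out, match calls were lost for DDIT4 (without dexamethasone replicate 1, adjusted p = 0.0682), SLC2A1 (dexamethasone replicate 2, 0.0719), BNIP3 (match replicate 1, 0.0579), BNIP3L (dexamethasone replicate 2 or match replicate 1, 0.0635 to 0.0861), PFKM (dexamethasone replicate 1 or 2 or match replicate 2, 0.0579 to 0.0737) and GPI (dexamethasone or match replicate 2 or 3, 0.0612 to 0.131). Mismatch calls were lost in the same way for HK1 (mismatch replicate 2, 0.0701), PFKM (dexamethasone replicate 1 or 2, 0.0501 to 0.057), ALDOC (dexamethasone replicate 2 or mismatch replicate 1, 0.0657 to 0.121), PKM (dexamethasone replicate 3 or mismatch replicate 2 or 3, 0.0614 to 0.113), P4HA1 (dexamethasone replicate 1 or mismatch replicate 1 or 3, 0.0571 to 0.0637), PFKFB4 (dexamethasone or mismatch replicate 1 or 2, 0.0723 to 0.161), SLC2A1 (dexamethasone replicate 2 or 3 or mismatch replicate 1 or 3, 0.0545 to 0.0971), ERO1A (dexamethasone replicate 2 or 3 or mismatch replicate 1 or 2, 0.0595 to 0.0882), PGM1 (dexamethasone replicate 3 or any mismatch array, 0.0574 to 0.109), PGK1 (any dexamethasone or mismatch array, 0.0577 to 0.135) and ENO1 (any dexamethasone or non-treated array, mifepristone replicate 2 or mismatch replicate 1 or 2, 0.0507 to 0.17).

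The last comparison set the match against the mismatch polyamide, the pair meant to differ in the DNA sequence recognized, both given for 48 hours with dexamethasone for 6 hours. The labels do not state their doses, so a difference in dose cannot be told apart from a difference between the compounds. Of the 40 genes 5 were higher and 7 lower with the match polyamide, against 7.48% of all tested probe sets called higher, 9.38% called lower and 16.9% in either direction, and 22.9% of genes. The arrays did not overlap for 19 of the 40, against 29.9% of all tested probe sets. The median change was -0.04, beside 0.01 over all tested probe sets and -0.02 over genes at 1 probe set each.

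NDRG1 and PGM1 differed most. NDRG1 was 1.89-fold lower with the match polyamide, at 674 to 937 against 1465 to 1753 with the mismatch polyamide (log2 change -0.92, SE 0.10, adjusted p = 2.89e-06). PGM1 was 1.71-fold lower, at 267 to 340.0 against 531 to 551 (log2 change -0.77, SE 0.10, adjusted p = 1.75e-05). These 2 calls held under all 28 settings. Also lower with the match polyamide were ADM (-0.43, adjusted p = 0.00222), P4HA2 (-0.42, adjusted p = 5.44e-04), HIF1A (-0.22, adjusted p = 0.0182), the phosphoglycerate mutase PGAM1 (-0.18, adjusted p = 0.0141) and ENO1 (-0.16, adjusted p = 0.00562).

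EPAS1 was higher with the match than with the mismatch polyamide, at 1142 to 1307 against 762 to 876 (log2 change 0.57, SE 0.07, adjusted p = 1.87e-05). On the probe sets used, the 2 alpha subunits thus differed in opposite directions between the polyamides. A second, dimmer EPAS1 probe set changed by 0.34 and was not called (adjusted p = 0.426). VEGFA was 1.46-fold higher with the match polyamide (log2 change 0.55, SE 0.10, adjusted p = 4.83e-04), and MXI1, CA12 and GPI were higher by 0.35, 0.33 and 0.31 (adjusted p = 0.0488, 1.90e-04 and 3.31e-04).

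For the other 28 genes the difference was not called, which does not show that the polyamides act alike. The 95% interval of the difference was 0.07 to 0.99 for ALDOC, -1.04 to 0.05 for HK2, 0.09 to 0.63 for ANKRD37 and -0.40 to 0.11 for ENO2. It was -0.22 to 0.21 for SLC2A1 and -0.06 to 0.11 for GAPDH. DDIT4, at -0.19 to 0.03, and PFKFB3, at -0.03 to 0.36, the genes that dexamethasone alone moved in opposite directions, were not called in this comparison. The ANKRD37 difference itself ran from -0.16 to 0.50 over the 28 alternative settings and was called under 2 of them.

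The count of calls in this comparison was 5 (0 higher and 5 lower) on the signals as deposited and 4 (2 higher and 2 lower) with spike-in scaling, spike-in scaling ending those of HIF1A, CA12, GPI, PGAM1, ENO1, ADM, P4HA2 and MXI1 (adjusted p 0.0631 to 0.939). The higher calls of EPAS1, VEGFA, CA12, GPI and MXI1 were lost on deposited signals (adjusted p = 0.127, 0.229, 0.61, 0.678 and 0.593). Leaving out 1 array ended the calls of PGAM1 (without mismatch replicate 2, adjusted p = 0.0522), HIF1A (match replicate 2 or 3 or mismatch replicate 1, 0.0682 to 0.108) and MXI1 (any mismatch or non-treated array, match replicate 1 or 3, mifepristone replicate 2 or 3 or dexamethasone replicate 3, 0.0511 to 0.155).

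Some genes have further probe sets, and these differed in places. Of 95 probe sets annotated to these genes and no other, 89 were tested, 49 of them beyond the 40 used above. Their call, or lack of one, was that of the gene's main probe set for 39 of the 49 with dexamethasone, 42 with mifepristone, 33 with the match and 27 with the mismatch polyamide, and 32 in match against mismatch. The single call in the opposite direction was for PGK1, where another probe set was higher with the mismatch polyamide by 0.68 (adjusted p = 0.0225). None of the other 6 tested CA12 probe sets was called with dexamethasone or with mifepristone, and 0 of the 3 others of EGLN1 was called with dexamethasone. Between the polyamides 1 of the other 6 CA12 probe sets was called, at 0.40 (adjusted p = 0.00471), the rest changed by -0.36 to 0.13, and with the mean of all CA12 probe sets the call was lost (0.11, adjusted p = 0.3). The fall of EPAS1 with dexamethasone was likewise not called with the mean of its probe sets (-0.11, adjusted p = 0.727). A second PKM probe set was higher with the match polyamide by 0.51 (adjusted p = 0.0175), and a second PFKL probe set rose by 0.49 (match) and 0.42 (mismatch), where the main ones were not called for the match polyamide. For SLC2A3 both other probe sets were lower in match than in mismatch cells, with changes of -0.39 and -0.73.

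Other genes of the pathway were examined in 3 further lists. Of 24 other tested genes of glycolysis and pyruvate use, 1 rose and 1 fell with dexamethasone, 0 rose and 1 fell with mifepristone, 6 rose and 3 fell with the match polyamide, and 5 rose and 1 fell with the mismatch polyamide. These are 8.33%, 4.17%, 37.5% and 25% of the list, beside 6.8%, 5.28%, 39% and 29.7% of all genes, so the list was called about as often as genes at large. The list's median changes in these comparisons were -0.01, -0.03, 0.02 and 0.09, beside -0.01, 0.01, 0.03 and 0.02 over all tested probe sets. Over genes at 1 probe set each the medians were -0.04, 0.02, 0.05 and 0.07. PDK4, the pyruvate dehydrogenase kinase induced by fasting and glucocorticoids, averaged 1397 ± 37.4 with dexamethasone and 542 ± 61.8 in non-treated cells (log2 change 1.35, SE 0.08, adjusted p = 1.85e-10). It was -0.36 with mifepristone, -1.12 with the match and -0.62 with the mismatch polyamide, each relative to dexamethasone alone and each called. ENO3, the muscle-type enolase, changed by -0.53 with dexamethasone, 0.66 with the match and 0.56 with the mismatch polyamide, all called. HKDC1, an enzyme with hexokinase domains, was higher with the match polyamide than with dexamethasone alone (0.76, adjusted p = 1.44e-06) or the mismatch polyamide (0.78, adjusted p = 4.66e-06), and MPC2, a subunit of the mitochondrial pyruvate carrier, was lower (-0.49 and -0.43).

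Of 21 tested genes of oxygen sensing and HIF regulation, 1 was called with dexamethasone: CITED2, a HIF target that competes with HIF for its coactivators, averaged 217 ± 31.3 with dexamethasone and 95.5 ± 8.20 in non-treated cells (log2 change 1.06, SE 0.12, adjusted p = 2.51e-06). With mifepristone it averaged 118 ± 3.46 (-0.80, adjusted p = 1.48e-04), the 1 call of that comparison. Under the match polyamide 2 rose and 6 fell, and under the mismatch polyamide 0 rose and 3 fell. The list medians were 0.07 and 0.02, beside 0.03 and 0.02 over all tested probe sets. Over genes at 1 probe set each they were 0.05 and 0.07. The calls were 38.1% and 14.3% of the list with the match and the mismatch polyamide, beside 39% and 29.7% of all genes, and 4.76% in each of the dexamethasone and mifepristone comparisons, beside 6.8% and 5.28%. The largest fall was of COMMD1, a regulator of copper balance and of HIF1A stability, at 103 ± 9.38 with the match and 225 ± 8.16 with the mismatch polyamide, against 632 ± 22.7 with dexamethasone alone (SD, n = 3 each). Its changes were -2.45 and -1.43 (adjusted p = 2.60e-14 and 2.22e-10). ELOC, a subunit of the ligase that degrades hydroxylated HIF alpha, fell by 0.42 with the match polyamide, and CREBBP, a HIF coactivator, fell by 0.66 with the mismatch polyamide.

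Of 38 other tested genes known to be induced by hypoxia, 4 rose and 4 fell with dexamethasone, 4 rose and 2 fell with mifepristone, 13 rose and 14 fell with the match and 9 rose and 12 fell with the mismatch polyamide. These are 21.1%, 15.8%, 71.1% and 55.3% of the list, beside 6.8%, 5.28%, 39% and 29.7% of all genes. The list was chosen with earlier results of these data known, so its shares cannot be read as a test of hypoxia-induced genes. The medians of this list were 0.01, -0.01, -0.05 and 0.05, beside -0.04, 0.02, 0.05 and 0.07 over genes at 1 probe set each. ANGPTL4, a lipoprotein lipase inhibitor and known glucocorticoid target, averaged 372 ± 41.0 with dexamethasone, against 24.8 ± 5.93 in non-treated cells, and rose 9.53-fold (log2 change 3.25, SE 0.16, adjusted p = 1.66e-11). ERRFI1, a feedback inhibitor of EGF receptor signalling, rose by 1.64 and the lipid droplet coat gene PLIN2 by 0.88, while PLAUR, the urokinase receptor, fell by 1.00. With mifepristone, ANGPTL4 and ERRFI1 were lower than with dexamethasone alone (-2.08 and -1.11).

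In the same list MAFF, a small transcription factor of the stress response, rose under both polyamides (1.95 match, 1.52 mismatch). GBE1, the glycogen branching enzyme, and PLOD2, a collagen lysyl hydroxylase, fell under both. The match and mismatch changes were -1.44 and -0.75 for GBE1, and -1.15 and -0.83 for PLOD2. LOXL2, a lysyl oxidase, fell by 1.21 with the match polyamide and IGFBP3, an IGF-binding protein, fell by 1.45 with the mismatch polyamide. Between the polyamides, 11 were higher and 6 lower with the match (44.7% of the list, beside 22.9% of all genes), among them the repressor BHLHE40 (0.59) and the lipid droplet gene HILPDA (-0.73).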

How the data were processed

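The deposited values were linear intensity signals, 1 per probe set and array, which the authors made with MAS5 per the submitters' processing notes; its version and scaling target are not stated in the labels. RNA was isolated with an RNeasy kit and labelled with biotin, per the labels' protocols. The table held 54675 probe sets, of which 41097 had 1 gene symbol in the platform annotation, 1801 several and 11777 none here. Since array medians and trimmed means differed, all but the 62 control probe sets were quantile normalized together and analysed as log2(signal + 16). The test covered probe sets that exceeded their array's 40th percentile on at least 3 of the 15 arrays (39744, or 72.7%), and all 40 genes passed this filter also on the 9 arrays without polyamide. A model over the 15 arrays, with 1 coefficient per group, was run in limma 3.58.1 (R 4.3.3) with a variance trend (10 residual and 9.35 prior degrees of freedom), and p-values were adjusted by Benjamini-Hochberg over all probe sets tested. The script was tested on simulated data. Precision is limited by having 3 arrays in each group, and the files used here hold no detection calls.

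The genes, their roles and the further lists were chosen with earlier results of these data known. Array values were given for HIF1A, EPAS1, ARNT, VEGFA, SLC2A1, HK2, GAPDH, PGK1, LDHA and EGLN3 and for genes called with a change of at least 2-fold (NDRG1, ALDOC, PGM1 and CA12, besides VEGFA). DDIT4, PFKFB3, ENO2, ADM, MXI1, ANKRD37, EGLN1 and ENO1 were given them after their values were seen, and up to 4 called genes per further list were named. Promoters came from RefSeq tables, read with Python 3.11.15. Alternatives covered the scaling, the added constant, the filter, the variance model, the arrays fitted, the replicate block, the choice of probe set and each array left out. No pairing by replicate number was evident: deviations from group means of same-numbered arrays correlated between -0.0836 and 0.116 (median 0.00848), with 2 of 30 pairs over 0.1. For differently numbered arrays the range was -0.132 to 0.135 (median 0.00253), with 2 of 60 pairs over 0.1.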

Additional observations from a re-analysis of the deposited data

How the results depend on the processing

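Each of the 28 alternatives changed 1 choice, and 15 of them left out 1 array. Of the calls, 4 of 8 with dexamethasone, 2 of 6 with mifepristone, 12 of 23 with the match and 8 of 26 with the mismatch polyamide, and 2 of 12 between the polyamides held under all 28. Scaling mattered most. On signals as deposited, the genes called were 4 with dexamethasone (2 higher), 14 with mifepristone (13 higher), 13 with the match (7 higher), 15 with the mismatch polyamide (13 higher) and 5 between the polyamides (0 higher). With spike-in scaling they were 4 (2 higher), 21 (20 higher), 17 (12 higher), 10 (8 higher) and 4 (2 higher) in the same order. With median centring 5 genes were called with dexamethasone (2 higher), 20 with the mismatch polyamide (15 higher) and 10 between the polyamides (2 higher), and with trimmed-mean scaling 6 with mifepristone (2 higher). Without the variance trend 4 were called with dexamethasone. Over all tested probe sets, 1933 were called with dexamethasone (52.9% higher), against 814 (69.3%) as deposited and 767 with spike-in scaling. With mifepristone the counts were 1408 (45.1% higher), 8142 (97.2%) and 12838 (98.3%), and 60.2% were higher with median centring. With the match polyamide they were 12258 (51.5% higher), 7978 as deposited, and 75.5% higher with spike-in scaling. With the mismatch polyamide they were 9106 (52.4% higher), 71.7% higher as deposited, and 4624 with spike-in scaling. Between the polyamides they were 6699 (44.4% higher), 3094 (18.0%) as deposited and 2847 (75.0%) with spike-in scaling, and 30.7% were higher with median centring. The median of all tested probe sets moved by more than 0.1 with mifepristone (0.35 as deposited, 0.40 spike-in), the mismatch polyamide (0.14 as deposited), the match polyamide (0.24 spike-in) and between the polyamides (0.16 spike-in). The cause of these shifts was not tested.

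Directions turned under spike-in scaling for DDIT4 (0.078), PGK1 (0.060) and BNIP3L (0.019) with the match polyamide and for ADM (0.040), GPI (0.40, adjusted p = 0.0386 in limma) and EGLN1 (0.48, adjusted p = 0.0317) with mifepristone. On deposited signals they turned for PGK1 (0.077), ENO1 (0.058) and PKM (0.038) with the mismatch polyamide. With each array left out, 5 to 9 genes were called with dexamethasone, 5 to 7 with mifepristone, 20 to 24 with the match, 19 to 28 with the mismatch polyamide and 10 to 12 between the polyamides. Over all probe sets the ranges were 1434 to 2031, 998 to 1484, 10808 to 12337, 7517 to 9352 and 5373 to 6737. With the replicate number as a block, the genes called were 8, 6, 23, 27 and 12 and the probe sets 1922, 1433, 12247, 9125 and 6719 in the same order; GPI became called with the mismatch polyamide, the block ended no call, and 7 of 15 arrays correlated best with one of their own number.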
